A study of Homo sapiens with 15 samples.

Results

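Nucleotide excision repair removes bulky and helix-distorting DNA lesions, among them the intrastrand crosslinks that cisplatin and carboplatin leave in DNA. Damage is found either by a sensor that scans the genome or by a stalled RNA polymerase; both routes then share the opening of the helix by TFIIH, the check of the damaged strand, a cut on each side of the lesion, and the filling of the gap. The level of this pathway, of ERCC1 above all, has long been examined in ovarian cancer as a possible correlate of the response to platinum drugs. The 10 genes described here are the central named factors of the pathway: XPC and DDB2, ERCC6 and ERCC8, ERCC2 and ERCC3, XPA, and ERCC1, ERCC4 and ERCC5. They were taken by symbol from a table of 16604 genes, and all 10 had a row in it.

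RNA abundance was measured by sequencing polyA-selected RNA from 15 samples of 5 human cell lines, with 3 samples per line that the labels call biological replicates. OVCAR4 is a long-established ovarian cancer line of the high-grade serous type, and its untreated parent, Ovcar4Parental, is described as platinum sensitive. Ov4Cis was made cisplatin resistant and Ov4Carbo carboplatin resistant by culture in rising drug concentrations, until the IC50 had increased 2 to 10 fold. Ov4Carbo4 and Ov4Carbo7 each descend from 1 cell of Ov4Carbo, so each stands for a single clone; Ov4Cis and Ov4Carbo are 1 selected population each. All lines share the OVCAR4 background and were grown in DMEM with 10% serum. The replicates sample each line again, so the tests compare these lines and not cisplatin with carboplatin selection in general. In RNA from whole cultures, fewer cells that express a gene and less RNA per cell cannot be told apart.

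Values are log2 RPKM, read numbers relative to gene length and sequenced total, normalized by the authors, so levels of different genes can be set side by side per length. Sample medians were all 2.77, and 13643 to 13712 genes per sample lay above log2 RPKM 0. Depth is unknown, so precision can be read only from how far replicates lie apart. The ovarian markers PAX8, SOX17 and MECOM had line means of at least 5.85 log2 RPKM in every line, whereas WT1 lay between -5.07 and -1.52. Of 12 ovarian serous markers, Ov4Cis had 3 called higher against the parental line and 8 lower, Ov4Carbo7 1 and 7, Ov4Carbo4 3 and 6, and Ov4Carbo 2 and 4. Over all genes, in the same order, 19.8%, 22.2%, 21.6% and 17.7% were called higher and 16.4%, 20.4%, 18% and 16.2% lower. Those called higher were WT1, SOX17 and MECOM in Ov4Cis (3.56, 0.85 and 0.83) and in Ov4Carbo4 (2.81, 0.79 and 0.8). In Ov4Carbo they were WT1 and MSLN (2.38 and 0.82), and in Ov4Carbo7 PAX8 (0.73). All WT1 line means lay below log2 RPKM 0. KRT7, KRT8, KRT18 and EPCAM, genes of epithelial cells, were lower in all 4 derived lines. KRT7 averaged 8.28 in the parental line, -0.57 in Ov4Cis and 5.48 to 6.08 in the others. MUC16 averaged 4.60 in the parental line, -1.73 in Ov4Cis and -0.21 in Ov4Carbo7, and EPCAM 5.98, 1.17 and 3.01. The part of these marker differences in the values below was not tested. Of 7 markers of leukocytes and endothelium, 3 were measured, and CDH5, an endothelial cadherin, had line means of 2.15 to 5.13. Replicates of Ov4Carbo were the least alike: 9 of the 10 repair genes had their largest SD there, and its replicate 1 carries a title number of another series than its replicates 2 and 3. That series also takes in the Ov4Carbo4 and Ov4Carbo7 samples, while the parental and Ov4Cis samples belong to the other one; the labels do not call the series a batch.

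Differences were tested with limma, and a gene was called when its p, corrected over all 16604 genes (Benjamini-Hochberg), was under 0.05. Of the 10 genes, 0 were called in the same direction in all 4 derived lines against the parental line; over all genes, 745 (4.49%) were called higher and 542 (3.26%) lower in all 4, and 4303 (25.9%) were called in none. Across the 5 lines, 6 of the 10 differed by limma's moderated F-test: DDB2, ERCC6, ERCC2, XPA, ERCC1 and ERCC5. Over all genes that share was 76.9%. XPC, ERCC8, ERCC3 and ERCC4 had adjusted p-values of 0.0935, 0.0558, 0.244 and 0.408 in that test. The median range of the 5 line means was 0.54 log2 units for the 10 genes, 0.63 for 42 other excision repair genes and 0.86 for all genes. The median SD between replicates was 0.14 for the 10 genes and 0.21 for all genes; among genes with a mean of at least log2 RPKM 1 the 2 medians were 0.73 for the range and 0.17 for the SD.

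**Figure D1:**
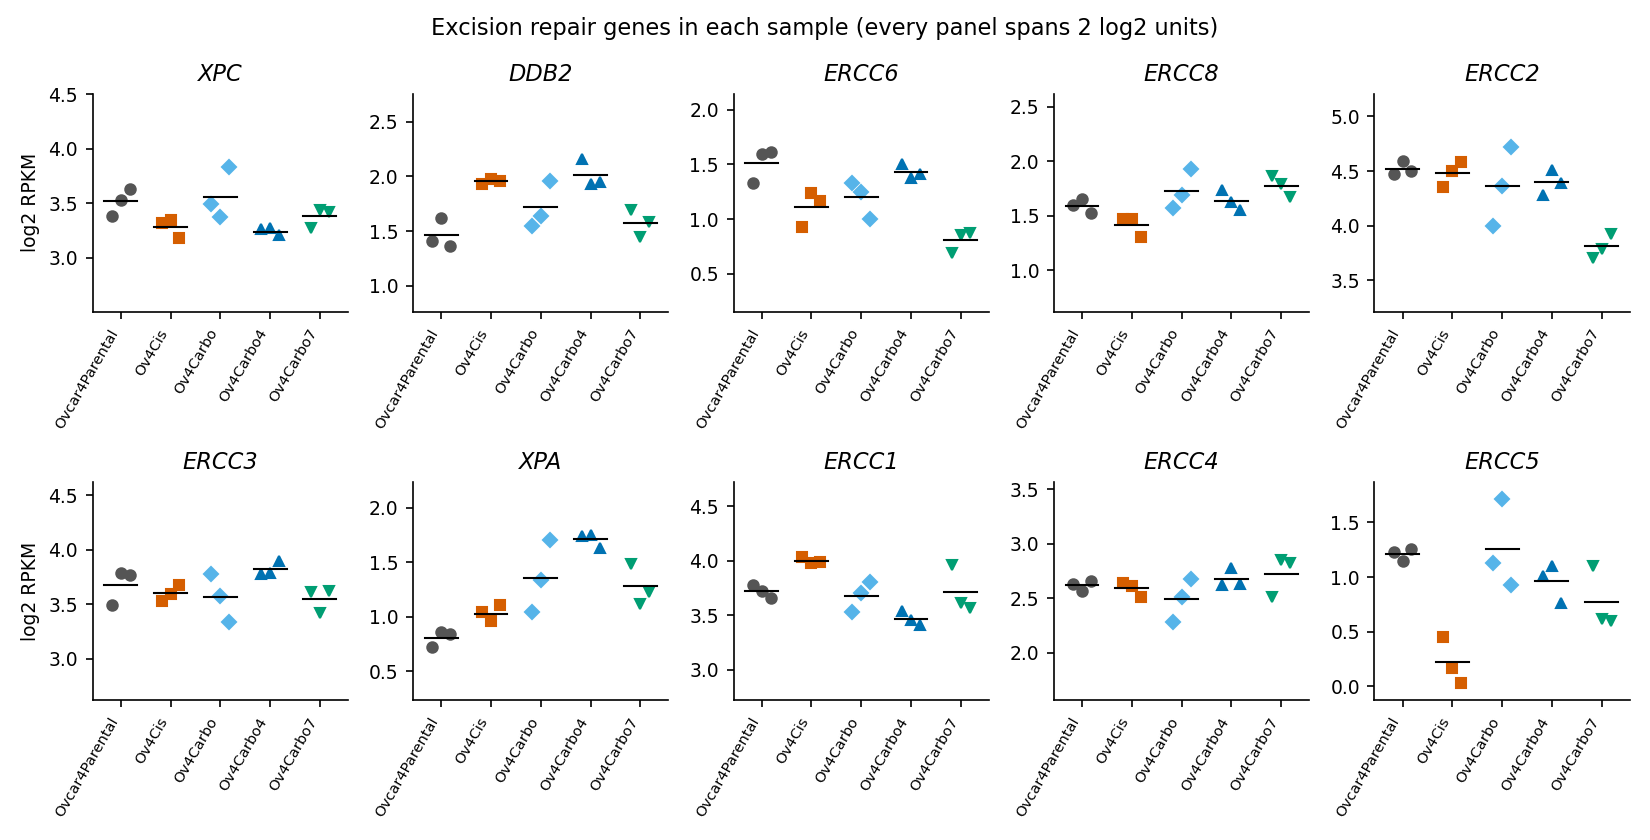
Log2 RPKM (y axis) of the 10 repair genes in each sample of the 5 lines (x axis); points are samples, horizontal lines are line means, and each panel spans 2 log2 units. XPA is highest in Ov4Carbo4, ERCC5 is lowest in Ov4Cis, and ERCC2 and ERCC6 are lowest in Ov4Carbo7.

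Against the parental line, between 1 and 3 of the 10 genes were called in each derived line. In Ov4Cis, DDB2 was called higher and ERCC5 and ERCC6 lower, so 1 of 10 was higher and 2 lower, while 19.8% of all genes were called higher and 16.4% lower. In Ov4Carbo, XPA was the single gene of the 10 called, and it was higher; 17.7% of all genes were called higher and 16.2% lower. Ov4Carbo4 had 2 of 10 higher, XPA and DDB2, beside 21.6% of all genes higher and 18% lower. Ov4Carbo7 had 1 of 10 higher, XPA, and 2 lower, ERCC2 and ERCC6, beside 22.2% of all genes higher and 20.4% lower. The median log2 fold change of the 10 genes was -0.07 in Ov4Carbo7, -0.06 in Ov4Cis, -0.02 in Ov4Carbo4 and 0.00 in Ov4Carbo, and that of all genes 0.02, 0.04, 0.07 and 0.03. In Ov4Carbo and Ov4Carbo4, where 0 of the 10 were called lower, limma gave 1 and 2 at an unadjusted p under 0.05. Each count is a few genes and stands near or below the share of all genes called. XPC, ERCC8, ERCC3, ERCC1 and ERCC4 were called in none of the 4 lines, beside 25.9% of all genes. The 4 comparisons share the parental samples.

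**Figure D2:**
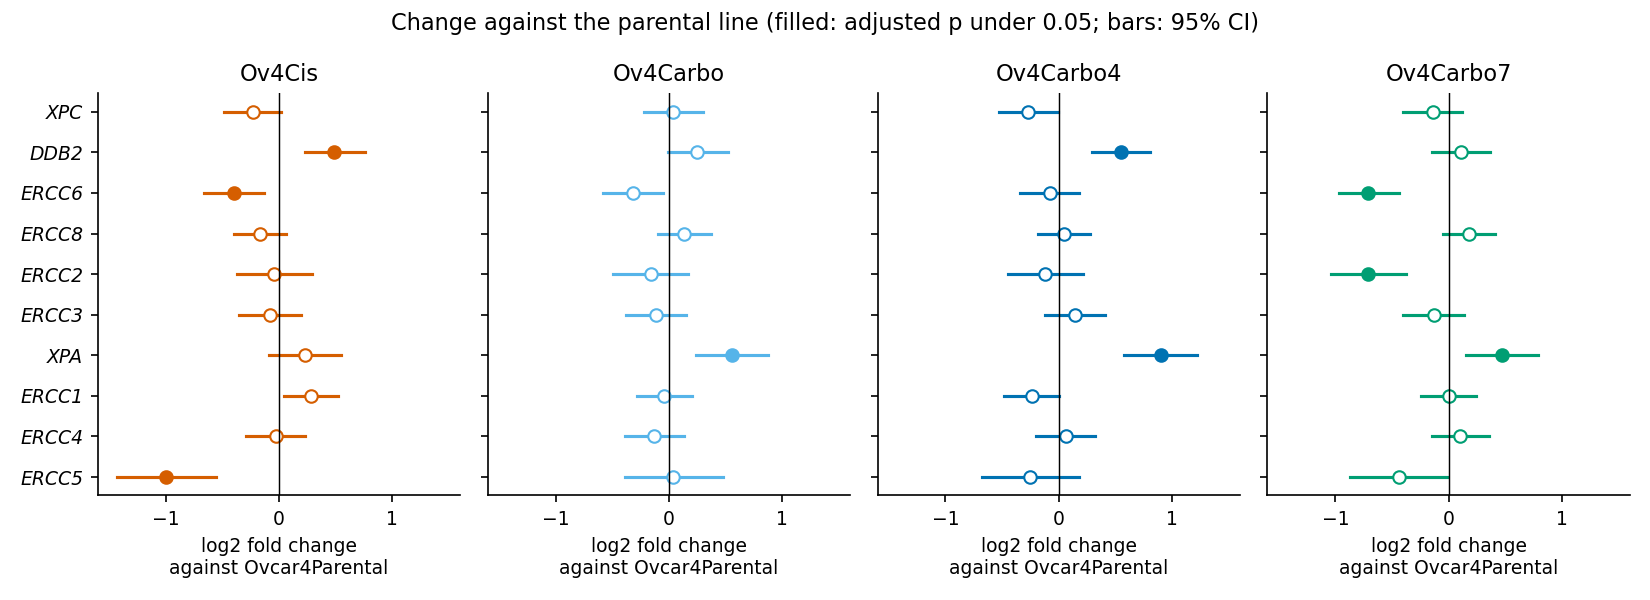
Log2 fold change against the parental line (x axis) of the 10 repair genes (y axis) in the 4 derived lines, with 95% confidence intervals from limma; filled points have an adjusted p under 0.05. XPA lies to the right of 0 in all 4 panels and is filled in 3, and ERCC5 in Ov4Cis has the farthest point from 0, at -1.0.

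XPA, the scaffold that checks the opened, damaged strand and holds the incision complex together, was called higher in the 3 carboplatin lines. It measured 0.72, 0.86 and 0.84 log2 RPKM in the 3 parental samples and 1.04, 0.96 and 1.11 in Ov4Cis. In Ov4Carbo it measured 1.04, 1.34 and 1.70, in Ov4Carbo4 1.74, 1.75 and 1.63, and in Ov4Carbo7 1.48, 1.12 and 1.23. Every derived sample lay above every parental sample. XPA rose by 0.90 ± 0.15 log2 units (SE; 95% interval 0.58 to 1.22, limma adjusted p = 0.000429), or 1.87-fold, in Ov4Carbo4. The difference was 0.56 ± 0.15 in Ov4Carbo (adjusted p = 0.0121 with limma) and 0.47 ± 0.15 in Ov4Carbo7 (adjusted p = 0.0215 with limma). In Ov4Cis it was 0.23 with a 95% interval of -0.09 to 0.55 and was not called (limma adjusted p = 0.255). The Ov4Carbo difference was 0.72 without its replicate 1, which leaves replicates of the parental samples' own title series, and was not called when only the 2 lines were fitted (adjusted p = 0.112 with limma). The Ov4Carbo7 difference was not called without its replicate 1 (0.37, limma adjusted p = 0.0903) or without parental replicate 1 (0.43, adjusted p = 0.0640). With a term for the title series, which rests on the spread within Ov4Carbo, the values were 1.38 in Ov4Carbo4 and 0.96 in Ov4Carbo7, both called. XPA was low among the 10 genes per length, with a mean of 1.24 log2 RPKM, at percentile 30.1 of all genes.

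The sequence before the XPA start is shown because XPA was the member called higher in most lines. It is 233 bases of RefSeq GRCh38.p14 at chr9:97697358-97697590, minus strand, written 5′ to 3′ and ending 17 bases short of the window's end, where an annotated exon begins. Capitals mark the GC box GGGCGG or its reverse CCGCCC.
XPA: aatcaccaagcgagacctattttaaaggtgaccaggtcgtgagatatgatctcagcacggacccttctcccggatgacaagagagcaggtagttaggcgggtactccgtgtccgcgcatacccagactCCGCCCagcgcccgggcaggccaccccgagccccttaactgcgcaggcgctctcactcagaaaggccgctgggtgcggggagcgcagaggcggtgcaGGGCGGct
The stretch holds 2 GC boxes and 19 CpG dinucleotides. A GC box occurred on either strand in 42.6% of 35116 RefSeq promoter windows of 250 bases, so its presence here is common. The CCAAT box (CCAAT), the ETS core CCGGAAG, the E2F core GCGCGAAA and the TATA box TATAAA, searched on both strands, had 0 matches in this stretch; they occurred in 32.0%, 8.52%, 0.439% and 10.7% of windows.

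Genes beside XPA on chromosome 9 were also higher in Ov4Carbo4. The 5 nearest genes of the table on each side were taken by their RefSeq order. In Ov4Carbo4 against the parental line, 8 of these 10 were called higher and 0 lower, beside 21.6% and 18% of all genes. Their median log2 fold change was 0.89, close to the 0.90 of XPA itself. The nearest on either side, NCBP1 and TRMO, differed by 0.80 and 1.07, and the 10 ranged from -0.01 to 2.52. In the other lines the neighbours were mixed: 2 were higher and 2 lower in Ov4Cis with a median of 0.16, 3 and 1 in Ov4Carbo with 0.26, and 3 and 2 in Ov4Carbo7 with 0.30. These counts stand near the shares of all genes, in the same order 19.8% and 16.4%, 17.7% and 16.2%, and 22.2% and 20.4%. Against Ov4Carbo, its source, Ov4Carbo4 had 6 neighbours higher and 0 lower (median 0.51), beside 23.1% and 19.2% of all genes. Ov4Carbo7 against Ov4Carbo4 had 0 higher and 6 lower (median -0.58), beside 24% and 27.1%. The part of a change shared by the region in the XPA value was not tested.

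**Figure D3:**
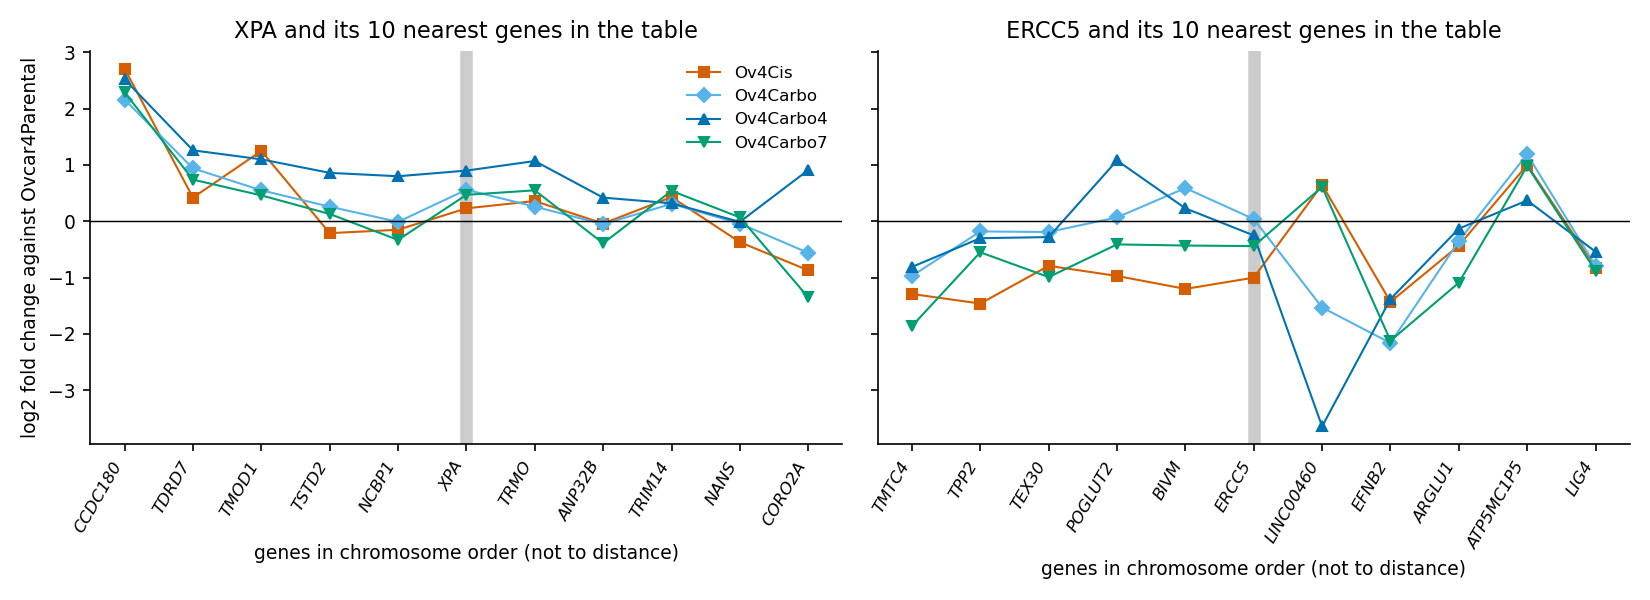
Log2 fold change against the parental line (y axis) of XPA and of ERCC5 with their 10 nearest genes in RefSeq order (x axis) in the 4 derived lines. Around XPA, 8 of 10 neighbours are called higher in Ov4Carbo4, beside 21.6% of all genes. Around ERCC5, 7 of 10 are called lower in Ov4Cis, beside 16.4% of all genes.

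ERCC5 (XPG), the nuclease that cuts on the 3′ side of the lesion, had the widest range of line means of the 10 genes, 1.04 log2 units. The parental samples measured 1.23, 1.15 and 1.26 log2 RPKM, and the Ov4Cis samples 0.45, 0.17 and 0.03. Ov4Carbo measured 1.13, 1.71 and 0.93, Ov4Carbo4 1.01, 1.10 and 0.76, and Ov4Carbo7 1.10, 0.62 and 0.60. All 3 Ov4Cis samples lay below every sample of the other 4 lines. ERCC5 fell by 1.0 ± 0.20 log2 units in Ov4Cis (SE; 95% interval -1.43 to -0.56, limma adjusted p = 0.00169), to 0.502 of the parental level. Ov4Cis was also below Ov4Carbo, by a log2 difference of -1.04 ± 0.20 (limma adjusted p = 0.00163). On the log2(RPKM + 1) scale, which compresses low values, the 2 differences were -0.61 and -0.65 and were called. In Ov4Carbo7 and Ov4Carbo4 the samples lay below the parental ones but were not called, at -0.44 (limma adjusted p = 0.095) and -0.25 (adjusted p = 0.344). The Ov4Carbo7 difference was called without its replicate 1 (-0.60, limma adjusted p = 0.0408) and without Ov4Carbo replicate 2 (-0.44, adjusted p = 0.0356). ERCC5 is the lowest of the 10 per length, with a mean of 0.88 log2 RPKM.

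The ERCC5 value cannot be assigned to ERCC5 alone. In GENCODE 29, 63.2% of its 8242 exonic bases are shared on the same strand with the read-through gene BIVM-ERCC5 and 19.1% with BIVM, and how reads in shared bases were counted is not given in the sources used here. BIVM, the neighbour just before it on chromosome 13, fell by 1.20 log2 units in Ov4Cis against the parental line (limma adjusted p = 0.000118) and rose by 0.59 in Ov4Carbo (adjusted p = 0.0179), where ERCC5 differed by 0.04. On the other side LINC00460 differed by 0.65 in Ov4Cis and was not called (adjusted p = 0.311). Of the 10 genes around ERCC5, 7 were called lower and 1 higher in Ov4Cis, beside 16.4% and 19.8% of all genes. Their median was -0.89 and their range -1.46 to 1.0. The same genes gave 6 lower and 1 higher in Ov4Carbo7 (median -0.71), 5 and 1 in Ov4Carbo4 (median -0.29), and 4 and 2 in Ov4Carbo (median -0.27). Over all genes, in the same order, 20.4%, 18% and 16.2% were lower and 22.2%, 21.6% and 17.7% higher. The part of a regional change in the ERCC5 value was not tested.

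ERCC1 and ERCC4 (XPF) form the nuclease that cuts on the 5′ side. ERCC1 measured 3.78, 3.72 and 3.66 log2 RPKM in the parental line, 4.03, 3.98 and 3.99 in Ov4Cis, 3.53, 3.70 and 3.80 in Ov4Carbo, 3.54, 3.46 and 3.41 in Ov4Carbo4, and 3.96, 3.61 and 3.57 in Ov4Carbo7. The 3 Ov4Cis samples were the highest of the 15. Against the parental line ERCC1 was not called in any derived line: the difference was 0.28 in Ov4Cis (limma adjusted p = 0.0633), -0.24 in Ov4Carbo4, -0.04 in Ov4Carbo and 0.00 in Ov4Carbo7. The Ov4Cis value crossed the threshold without Ov4Carbo replicate 1 (limma adjusted p = 0.0474) or Ov4Carbo7 replicate 1 (adjusted p = 0.0267), and also with only the 2 lines fitted (0.28, adjusted p = 0.0366), on log2(RPKM + 1) (0.26, adjusted p = 0.0482) and with the title series term (0.28, adjusted p = 0.0474). ERCC1 in Ov4Carbo4 crossed it without Ov4Carbo7 replicate 1 (-0.24, adjusted p = 0.0471). Ov4Cis was 0.53 log2 units above Ov4Carbo4 (limma adjusted p = 0.0021). It was 0.32 ± 0.11 above Ov4Carbo (adjusted p = 0.0396 with limma), a call lost in 12 of 23 refits: without any 1 sample of Ov4Cis (0.31 to 0.33) or Ov4Carbo4 (0.32), without Ov4Carbo replicate 1 (0.25) or 2 (0.34), without parental replicate 2 (0.32), and in 3 other settings. In GENCODE 29, 28.6% of the exonic bases of ERCC1 lie opposite exons of CD3EAP, whose values differed by -0.24 in Ov4Cis (adjusted p = 0.461). Of 10 neighbours, 1 was called higher, FOSB at 3.0, and 5 lower in Ov4Cis, with a median of -0.34. Over all genes 19.8% were higher and 16.4% lower there.

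ERCC4 was the steadiest of the 10, with a range of line means of 0.23. Its 15 samples lay between 2.28 and 2.85 log2 RPKM, and 0 of 8 comparisons were called. The largest difference against the parental line was -0.13 in Ov4Carbo, with a 95% interval of -0.39 to 0.13. Per sample, ERCC1 exceeded its partner ERCC4 by 1.10 ± 0.09 log2 units in the parental line (SD, n = 3), 1.41 ± 0.06 in Ov4Cis, 1.19 ± 0.07 in Ov4Carbo, 0.99 ± 0.40 in Ov4Carbo7 and 0.80 ± 0.12 in Ov4Carbo4. ERCC5 lay below ERCC4 throughout, by a difference of -1.41 ± 0.01 in the parental line and -2.37 ± 0.16 in Ov4Cis (SD, n = 3). The bases that ERCC5 shares with BIVM-ERCC5 and BIVM limit this difference too. An antisense gene, AC010401.1, faces 25.7% of the exonic bases of ERCC4.

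ERCC2 (XPD) and ERCC3 (XPB) are the DNA helicase and translocase of TFIIH, the complex that opens the helix in repair and at promoters. ERCC2 measured 4.47, 4.59 and 4.50 log2 RPKM in the parental line, 4.35, 4.50 and 4.58 in Ov4Cis, 4.0, 4.36 and 4.72 in Ov4Carbo, 4.28, 4.51 and 4.39 in Ov4Carbo4, and 3.70, 3.79 and 3.92 in Ov4Carbo7. The Ov4Carbo7 samples were the 3 lowest of the 15. ERCC2 fell by 0.71 ± 0.15 log2 units in Ov4Carbo7 against the parental line (SE; 95% interval -1.04 to -0.38, limma adjusted p = 0.00236), to 0.61 of its level. Against Ov4Carbo the difference was -0.55 (limma adjusted p = 0.0131), and against the other clone, Ov4Carbo4, -0.59 (adjusted p = 0.00595). With only the 2 lines fitted, the difference from Ov4Carbo was not called (limma adjusted p = 0.108). Within the 3 Ov4Carbo samples, ERCC2 was lowest in replicate 1, the one of the same title series as Ov4Carbo7. With a term for the title series, estimated from that line alone, the difference from the parental line was -0.17 (limma adjusted p = 0.57) and that from Ov4Carbo -0.19 (adjusted p = 0.45). The comparison of Ov4Carbo7 with Ov4Carbo4 lies within 1 title series and was called in all 23 refits, at -0.65 to -0.53.

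ERCC3 samples ranged from 3.34 to 3.90 log2 RPKM with 0 of 8 comparisons called. In 2 refits ERCC3 in Ov4Carbo7 against Ov4Carbo4 was called, at -0.27 both times, one of them without Ov4Carbo replicate 3 (limma adjusted p = 0.0487), and without Ov4Carbo replicate 1 Ov4Carbo4 was 0.36 above Ov4Carbo (adjusted p = 0.0301). ERCC2 exceeded ERCC3 by 0.84 ± 0.13 log2 units per sample in the parental line (SD, n = 3) and by 0.25 ± 0.15 in Ov4Carbo7. Of the 10 genes around ERCC2 on chromosome 19, 3 were called lower and 0 higher in Ov4Carbo7, with a median of -0.44. Over all genes 20.4% were lower and 22.2% higher there. KLC3, which faces 8.29% of the exonic bases of ERCC2, differed by -0.62 (limma adjusted p = 0.0685) and PPP1R13L by -0.48 (adjusted p = 0.0118).

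ERCC6 (CSB) and ERCC8 (CSA) act where RNA polymerase has stalled at a lesion; ERCC6 is the remodeller that binds the polymerase and ERCC8 the substrate receptor of a ubiquitin ligase. ERCC6 measured 1.33, 1.6 and 1.61 log2 RPKM in the parental line, 0.93, 1.24 and 1.17 in Ov4Cis, 1.33, 1.25 and 1.00 in Ov4Carbo, 1.5, 1.38 and 1.41 in Ov4Carbo4, and 0.69, 0.85 and 0.87 in Ov4Carbo7. The Ov4Carbo7 samples were the 3 lowest of the 15. ERCC6 fell by 0.71 ± 0.12 log2 units in Ov4Carbo7 against the parental line (SE; 95% interval -0.97 to -0.44, limma adjusted p = 0.000525), to 0.612 of its level. The difference from Ov4Carbo4 was -0.63 (limma adjusted p = 0.000926). That from Ov4Carbo was -0.39 (adjusted p = 0.0245 with limma) and was not called without Ov4Carbo replicate 1 (-0.32), Ov4Carbo replicate 2 (-0.36) or Ov4Carbo7 replicate 1 (-0.33). It was also not called with only these 2 lines fitted (limma adjusted p = 0.11). In Ov4Cis ERCC6 fell by 0.40 ± 0.12 (limma adjusted p = 0.0214), a call lost without parental replicate 2 (-0.36), parental replicate 3 (-0.35) or Ov4Cis replicate 1 (-0.30). The Ov4Cis call was also lost with only Ov4Cis and the parental line fitted (limma adjusted p = 0.0579). In Ov4Carbo the difference was -0.32 (limma adjusted p = 0.062), called without its replicate 1 (-0.39, adjusted p = 0.0358) or parental replicate 1 (-0.41, adjusted p = 0.0312). Of 10 neighbours on chromosome 10, 2 were called lower and 0 higher in Ov4Carbo7, beside 20.4% and 22.2% of all genes. The nearest, ARHGAP22 and OGDHL, differed by 0.78 and -0.66 (limma adjusted p = 0.1 and 0.113). The median of the 10 was -0.44, and 8 of them were negative. The 2 called, named after their values were seen, were MAPK8 at -0.47 and PARG at -0.57. The part of a regional change in the ERCC6 value was not tested.

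A window before an ERCC6 start is shown because ERCC6 was lower in both Ov4Cis and Ov4Carbo7. It spans 250 bases of RefSeq GRCh38.p14 at chr10:49539539-49539788, minus strand, 5′ to 3′, with the GC box in capitals.
ERCC6: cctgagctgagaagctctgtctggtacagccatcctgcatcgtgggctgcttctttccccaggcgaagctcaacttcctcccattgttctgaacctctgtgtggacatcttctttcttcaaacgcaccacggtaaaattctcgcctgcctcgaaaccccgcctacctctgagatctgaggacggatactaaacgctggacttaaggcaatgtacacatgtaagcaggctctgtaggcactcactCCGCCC
It holds 1 GC box, at its very end, and 10 CpG dinucleotides. The window before the other listed start of ERCC6 holds 0 GC boxes and 18 CpG dinucleotides.

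ERCC8 lay between 1.31 and 1.93 log2 RPKM in the 15 samples and was not called against the parental line in any derived line. It was lower in Ov4Cis than in Ov4Carbo by a log2 difference of -0.31 ± 0.11 (SE; limma adjusted p = 0.04), a call lost in 11 of 23 refits: without any 1 Ov4Cis sample (-0.34 to -0.26), without Ov4Carbo replicate 2 (-0.33) or 3 (-0.21), without replicate 2 of Ov4Carbo4, Ov4Carbo7 or the parental line (-0.31 each), and in 3 other settings. Per sample, ERCC6 minus ERCC8 was -0.08 ± 0.18 log2 units in the parental line (SD, n = 3) and -0.97 ± 0.19 in Ov4Carbo7. A pseudogene on the same strand, GNL3LP1, shares 28.3% of the exonic bases of ERCC8.

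XPC and DDB2 find damage across the genome; XPC binds the distorted helix, and DDB2, a subunit of a ubiquitin ligase and a p53 target gene, hands lesions to it. DDB2 measured 1.41, 1.62 and 1.36 log2 RPKM in the parental line, 1.93, 1.98 and 1.96 in Ov4Cis, 1.55, 1.64 and 1.96 in Ov4Carbo, 2.16, 1.93 and 1.95 in Ov4Carbo4, and 1.69, 1.45 and 1.58 in Ov4Carbo7. Samples of Ov4Cis and Ov4Carbo4 lay above all parental and all Ov4Carbo7 samples. DDB2 rose by 0.49 ± 0.12 log2 units in Ov4Cis (SE; 95% interval 0.23 to 0.76, 1.41-fold, limma adjusted p = 0.00654). In Ov4Carbo4 it rose by 0.55 ± 0.12 (95% interval 0.29 to 0.81, 1.46-fold, adjusted p = 0.00327 with limma). The difference was 0.25 in Ov4Carbo and 0.11 in Ov4Carbo7, neither called. Ov4Carbo7 was below Ov4Carbo4 by a log2 difference of -0.44 (limma adjusted p = 0.00904). All 3 calls held in the 23 refits of each. The nearest neighbours of DDB2 on chromosome 11, PACSIN3 and ACP2, differed by -0.37 and 0.22 in Ov4Cis and by -0.47 and 0.24 in Ov4Carbo4, and PACSIN3 in Ov4Carbo4 was called (limma adjusted p = 0.018). Of the 10 genes around DDB2, 4 were called higher and 0 lower in Ov4Cis (median 0.23), beside 19.8% and 16.4% of all genes. In Ov4Carbo4 3 were higher and 2 lower (median 0.16), beside 21.6% and 18%. LRP4 and MADD, named after their values were seen, were higher in both lines, by 1.08 and 0.44 in Ov4Cis and by 1.8 and 1.04 in Ov4Carbo4. Between the clones, Ov4Carbo7 against Ov4Carbo4, 2 neighbours were higher and 5 lower, with a median of -0.36 beside the -0.44 of DDB2. Over all genes 24% were higher and 27.1% lower between them. The part of a regional change in the DDB2 value was not tested.

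A window before a DDB2 start is shown because DDB2 rose in both Ov4Cis and Ov4Carbo4. It spans 250 bases of RefSeq GRCh38.p14 at chr11:47214204-47214453, plus strand, 5′ to 3′, before the first of 2 listed starts; capitals mark the CCAAT box.
DDB2: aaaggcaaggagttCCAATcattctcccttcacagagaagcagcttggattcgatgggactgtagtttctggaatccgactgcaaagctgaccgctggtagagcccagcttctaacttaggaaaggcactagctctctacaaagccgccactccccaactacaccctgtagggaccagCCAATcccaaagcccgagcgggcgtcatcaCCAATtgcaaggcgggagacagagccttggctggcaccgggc
It holds 3 CCAAT boxes, 0 GC boxes and 9 CpG dinucleotides. The window before the second listed start holds 0 CCAAT boxes, 3 GC boxes and 16 CpG dinucleotides, so the motif content depends on which start is read. The half-site of p53 was searched as RRRCWWGYYY, where R is A or G, W is A or T, and Y is C or T. It had 0 matches in this window and occurred in 5.57% of all windows. This says only that those letters are not in these 250 bases.

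Of 20 other p53 target genes, 0 were called higher and 3 lower by limma in Ov4Cis and also in Ov4Carbo4, the lines in which DDB2 rose, beside 19.8% of all genes higher and 16.4% lower in Ov4Cis and 21.6% and 18% in Ov4Carbo4. The 3 lower in Ov4Cis became 1 without Ov4Cis replicate 3 or parental replicate 2, and 5 without Ov4Carbo replicate 1. At an unadjusted p under 0.05, 2 were higher in Ov4Cis and 3 in Ov4Carbo4. Ov4Carbo had 3 higher and 3 lower, beside 17.7% and 16.2% of all genes, and Ov4Carbo7 4 higher and 2 lower, beside 22.2% and 20.4%. Leaving out 1 sample gave 1 to 6 higher and 2 to 5 lower in Ov4Carbo, the extremes without parental replicate 3 or 2 or Ov4Carbo replicate 1, and 3 to 6 higher and 1 to 4 lower in Ov4Carbo7, the extremes without Ov4Carbo7 replicate 1 or Ov4Carbo replicate 1. PHLDA3, an inhibitor of AKT signalling, was lower in all 4 lines, by a log2 difference of -2.57 in Ov4Carbo4, -1.71 in Ov4Cis, -1.52 in Ov4Carbo and -0.99 in Ov4Carbo7 (limma adjusted p = 0.0222 or less). The PHLDA3 call in Ov4Carbo7 was lost without its replicate 1 (-0.93) or parental replicate 2 (-0.90). FAS, a death receptor, differed by -2.33 in Ov4Carbo4, and BBC3, which promotes apoptosis, by -2.01 in Ov4Cis. BBC3 was low, with line means of -0.21 log2 RPKM in the parental line and -2.21 in Ov4Cis. The BBC3 call was lost without Ov4Cis replicate 2 (-1.68) or 3 (-2.04) or parental replicate 2 (-1.64). TNFRSF10B, another death receptor, was higher in Ov4Carbo by 0.90 and in Ov4Carbo7 by 1.04, and TP53INP1 was higher in Ov4Carbo7 by 1.38.

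XPC measured 3.38, 3.53 and 3.63 log2 RPKM in the parental line, and its 15 samples lay between 3.18 and 3.83. Against the parental line it was not called: the difference was -0.23 in Ov4Cis (limma adjusted p = 0.149) and -0.27 in Ov4Carbo4 (adjusted p = 0.089), with all 3 samples of each line below the parental ones. Without Ov4Carbo replicate 3 the Ov4Carbo4 value was called at -0.27 (limma adjusted p = 0.0352). XPC in Ov4Carbo4 was below Ov4Carbo by a log2 difference of -0.32 (limma adjusted p = 0.0493), a call that 15 of 23 refits lost. These left out any 1 sample of Ov4Carbo4 (-0.33 to -0.30), Ov4Carbo7 or Ov4Cis (-0.32), parental replicate 2 or 3 (-0.32) or Ov4Carbo replicate 3 (-0.18), or used 1 of 3 other settings. LSM3, a gene of mRNA decay and splicing that faces 6.63% of the exonic bases of XPC, was lower in Ov4Carbo4 than in Ov4Carbo by -0.68 (limma adjusted p = 0.00308); strand use in the counting is not given in the sources used here. DDB2 minus XPC was -2.05 ± 0.19 log2 units per sample in the parental line (SD, n = 3), -1.33 ± 0.10 in Ov4Cis and -1.23 ± 0.12 in Ov4Carbo4.

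Ranked by line mean, few neighbouring lines could be separated. Of the 4 steps in the order of each gene, only the last of ERCC2, from Ov4Carbo at 4.36 to Ov4Carbo7 at 3.81, and the last of ERCC5, from Ov4Carbo7 at 0.77 to Ov4Cis at 0.22, were called (limma adjusted p = 0.0131 and 0.0413). XPA ran from Ov4Carbo4 at 1.71 through Ov4Carbo at 1.36, Ov4Carbo7 at 1.28 and Ov4Cis at 1.03 to the parental line at 0.81, with no step called. DDB2 ran from Ov4Carbo4 at 2.01 and Ov4Cis at 1.96 to Ov4Carbo at 1.72, Ov4Carbo7 at 1.57 and the parental line at 1.46, again with no step called. ERCC6 ran the other way, from the parental line at 1.51 through Ov4Carbo4 at 1.43, Ov4Carbo at 1.20 and Ov4Cis at 1.11 to Ov4Carbo7 at 0.81.

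The 2 single-cell lines differed in 4 of the 10 genes, against 1 to 3 in the other 7 main comparisons. In Ov4Carbo7 against Ov4Carbo4, 4 of 10 were lower, DDB2, ERCC6, ERCC2 and XPA, and 0 were called higher (1 at an unadjusted p under 0.05, limma); over all genes 24% were higher and 27.1% lower. XPA differed by -0.43 (limma adjusted p = 0.0278), a call lost without Ov4Carbo4 replicate 1 or 2 or Ov4Carbo7 replicate 3 (-0.41 each) or Ov4Carbo7 replicate 2 (-0.35). The median of the 10 was -0.23 and that of all genes -0.05. Against Ov4Carbo, Ov4Carbo4 had 0 higher and 1 lower, XPC, beside 23.1% and 19.2% of all genes, with medians of 0.11 and 0.04. In Ov4Carbo7 against Ov4Carbo 0 were higher and 2 lower, ERCC2 and ERCC6, beside 18.5% and 18.2% of all genes. Between the 2 drug-selected populations, Ov4Cis against Ov4Carbo, 1 was higher, ERCC1, and 2 lower, ERCC5 and ERCC8, beside 18.1% and 16.1% of all genes; the median of the 10 was -0.03. Comparisons with Ov4Carbo turned on single samples for several genes. Without its replicate 1, XPA was lower in Ov4Cis than in Ov4Carbo (-0.49, limma adjusted p = 0.0114). Without its replicate 3, Ov4Carbo4 exceeded it in XPA (0.51, adjusted p = 0.0082) and DDB2 (0.42, adjusted p = 0.0136), Ov4Cis exceeded it in DDB2 (0.36), and ERCC5 was lower in Ov4Carbo7 (-0.65). Without its replicate 2, XPC was lower in Ov4Cis (-0.37, adjusted p = 0.0349). Without Ov4Carbo7 replicate 1, that line exceeded Ov4Carbo in ERCC4 (0.34, adjusted p = 0.0450) and was below it in ERCC5 (-0.64, adjusted p = 0.0328).

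The remaining excision repair genes were read from a list of 43, of which 42 were analysed. In Ov4Cis 5 were called higher and 6 lower against the parental line, beside 19.8% and 16.4% of all genes. Ov4Carbo7 had 7 higher and 15 lower, beside 22.2% and 20.4% of all genes, Ov4Carbo4 8 and 10, beside 21.6% and 18%, and Ov4Carbo 8 and 7, beside 17.7% and 16.2%. The share of the list called in either direction was 52.4% for Ov4Carbo7, 42.9% for Ov4Carbo4, 35.7% for Ov4Carbo and 26.2% for Ov4Cis, and the medians, in the same order, were -0.13, 0.05, 0.07 and -0.06 log2 units. The Ov4Cis total of 11 was 6 without parental replicate 3 and 7 without parental replicate 2 or Ov4Cis replicate 2 or 3, and the Ov4Carbo total of 15 was 9 without parental replicate 2 or 3 or Ov4Carbo replicate 3. In Ov4Carbo7 against Ov4Carbo4, 7 were higher and 20 lower, with a median of -0.24, beside 24% and 27.1% of all genes.

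ERCC2 and ERCC3 were not called in Ov4Carbo, but other TFIIH subunits were. Of 7 core and kinase subunits, 5 were called higher and 0 lower there, with a median of 0.52, beside 17.7% of all genes higher and 16.2% lower and a median of 0.03. The 5 became 3 without Ov4Carbo replicate 3 or parental replicate 2 or 3. GTF2H1, a core subunit, was called higher in all 4 lines, by a log2 difference of 0.56 in Ov4Carbo7, 0.41 in Ov4Cis, 0.38 in Ov4Carbo and 0.36 in Ov4Carbo4 (limma adjusted p = 0.03 or less). The GTF2H1 call was kept in Ov4Carbo7 whichever sample was left out. It was lost in Ov4Cis without parental replicate 1 (0.36) or Ov4Cis replicate 3 (0.39), and in Ov4Carbo without parental replicate 1 (0.32) or 2 (0.41) or Ov4Carbo replicate 3 (0.26). In Ov4Carbo4 it was lost without any 1 Ov4Carbo4 sample (0.32 to 0.38) or without parental replicate 1 (0.30) or 2 (0.38). GTF2H3 differed by 0.59 in Ov4Carbo, a call lost without parental replicate 3 (0.50), and by -0.47 in Ov4Carbo7, lost without any 1 Ov4Carbo7 sample (-0.50 to -0.43) or parental replicate 1 (-0.38) or 2 (-0.47). GTF2H5, the small subunit that stabilises TFIIH, measured 1.57, 1.16 and 1.26 log2 RPKM in Ov4Carbo4 and 2.36, 2.51 and 2.54 in the parental line, a log2 difference of -1.14 ± 0.18 (SE; limma adjusted p = 0.000353). All 3 Ov4Carbo4 samples of GTF2H5 lay below every sample of the other lines. TCEA1, a transcription elongation factor, measured 4.96, 5.59 and 6.10 log2 RPKM in Ov4Carbo and 5.10, 4.78 and 4.70 in the parental line, so Ov4Carbo replicate 1 lay within the parental range. The log2 difference of 0.69 was called, and the call was lost without parental replicate 2 (0.66) or 3 (0.61) or Ov4Carbo replicate 2 (0.67) or 3 (0.42, limma adjusted p = 0.0961). TCEA1 in Ov4Carbo4 differed from Ov4Carbo by -1.09 (limma adjusted p = 0.00201).

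Of 18 genes that fill and seal the gap, 2 were called higher and 11 lower in Ov4Carbo7, with a median of -0.46, beside 22.2% and 20.4% of all genes. Ov4Carbo4 had 2 higher and 7 lower (median -0.05), beside 21.6% and 18% of all genes. Ov4Carbo had 0 and 5 (median 0.03), beside 17.7% and 16.2%, and its 5 lower became 3, with 0 higher, without parental replicate 3. Ov4Cis had 3 and 3 (median -0.08), beside 19.8% and 16.4%; without parental replicate 2 or 3 or Ov4Cis replicate 2 or 3, 0 or 1 were higher and 2 or 3 lower. RFC2, a subunit of the clamp loader, measured 3.88, 4.05 and 4.05 log2 RPKM in the parental line and 2.48, 2.55 and 2.65 in Ov4Carbo7, a log2 difference of -1.43 ± 0.11 (SE; limma adjusted p = 1.19e-06). It differed by -0.58 in Ov4Carbo and -0.95 in Ov4Carbo4, and by 0.05 in Ov4Cis, which was not called. POLE4, a subunit of polymerase epsilon, was lower in Ov4Carbo, Ov4Carbo4 and Ov4Carbo7 by -1.14, -0.79 and -0.98 and was not called in Ov4Cis (-0.13). POLD4, a subunit of polymerase delta, differed by 0.48 in Ov4Cis, -0.86 in Ov4Carbo4 and 0.79 in Ov4Carbo7, and the 2 clones were 1.65 apart (limma adjusted p = 6.87e-06). The Ov4Cis call of POLD4 was lost without any 1 Ov4Cis sample (0.45 to 0.52), without parental replicate 2 (0.45) or 3 (0.44), and without Ov4Carbo4 replicate 2 or 3 or Ov4Carbo7 replicate 2 (0.48). These proteins also copy DNA in dividing cells. Of 15 proliferation genes, 1 was called higher and 8 lower in Ov4Carbo7 against the parental line (median -0.38), and 3 higher and 0 lower in Ov4Carbo4 (median 0.21). In Ov4Carbo7 against Ov4Carbo4, 0 were higher and 12 lower (median -0.44), beside 24% and 27.1% of all genes. The 12 became 4 to 7 without Ov4Carbo4 replicate 1 or 3 or Ov4Carbo7 replicate 1 or 2, the 8 became 5 without Ov4Carbo7 replicate 1 or parental replicate 2 or 3, and the 3 became 1 without any 1 Ov4Carbo4 sample or parental replicate 1 or 2. Their part in the gap-filling values was not tested.

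**Figure D4:**
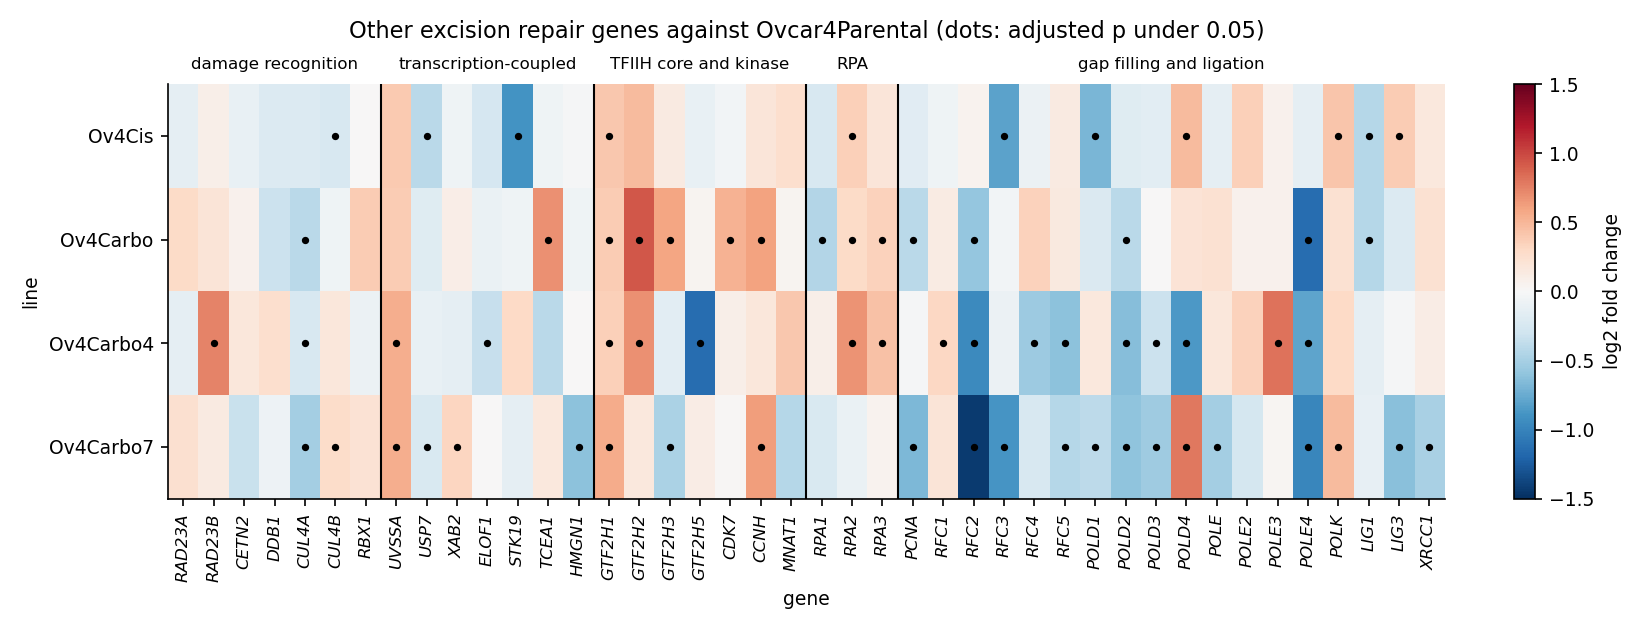
Heat map of the log2 fold change against the parental line (colour scale from -1.5 to 1.5) of 42 other excision repair genes (x axis, by role) in the 4 derived lines (y axis); dots mark an adjusted p under 0.05. Of the TFIIH genes, 5 of 7 are called higher in Ov4Carbo, and of the gap-filling genes 11 of 18 are called lower in Ov4Carbo7.

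The other recognition genes and RPA, which coats the single strand, gave small counts. Over all genes, 19.8% were called higher and 16.4% lower in Ov4Cis, and 17.7% and 16.2% in Ov4Carbo. The shares were 21.6% and 18% in Ov4Carbo4, 22.2% and 20.4% in Ov4Carbo7, and 24% and 27.1% in Ov4Carbo7 against Ov4Carbo4. Of 7 other damage recognition genes, 0 were higher and 1 lower in Ov4Cis and in Ov4Carbo, and 1 and 1 in Ov4Carbo4 and in Ov4Carbo7. Of 7 other genes of transcription-coupled recognition, 0 were higher and 2 lower in Ov4Cis, 1 and 0 in Ov4Carbo, 1 and 1 in Ov4Carbo4, and 2 and 2 in Ov4Carbo7. Of 3 RPA subunits, 2 were higher and 1 lower in Ov4Carbo, 2 and 0 in Ov4Carbo4, and in Ov4Carbo7 against Ov4Carbo4 0 were higher and 3 lower. Between these clones, 1 damage recognition gene was higher and 4 lower, and 3 transcription-coupled genes were higher and 2 lower. The 2 RPA subunits higher in Ov4Carbo became 0 without Ov4Carbo replicate 2 or 3 or parental replicate 1 or 2. The damage recognition call in Ov4Cis was lost without any 1 sample of Ov4Cis, Ov4Carbo4 or Ov4Carbo7. Other counts also changed when single samples were left out.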

How the data were processed

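The deposited table holds log2 RPKM values that the authors normalized by conditional quantile normalization (cqn), as its name states; it also names a threshold, and its rule is not given in the sources used here. The submitters' processing notes list BWA 0.7.15-r1140, HTSeq and the build hg19/GRCh37, without their roles. Symbols matched 16448 of 16604 Ensembl identifiers.

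limma 3.58.1 under R 4.3.3 (lmFit, eBayes, two-sided) fitted a coefficient per line to all genes of the 15 samples, with Benjamini-Hochberg adjustment over all genes within each of 8 comparisons and 2 further pairs used for the order of levels and other values between lines. The script was tested on simulated data. RefSeq GRCh38.p14 gave gene order and promoter sequences, and GENCODE 29 shared exons; no coordinates in the authors' build are given. The named genes were the 10 members, other excision repair and p53 target genes called in any comparison with a change of 1 log2 unit or more or called one way in all 4 derived lines, and the nearest neighbours. Of the p53 targets that met this rule, the 5 called against the parental line are given. Marker genes, LSM3 and BIVM stand beside the values they bear on, and LRP4, MADD, MAPK8 and PARG were named after their values were seen. The members and lists were chosen with earlier results of these data known. Python 3.11.15 with matplotlib 3.10.9 and pandas 2.3.3 made the tables and figures.

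The 23 refits of a comparison (22 for ERCC5, which the filter removes) were a variance trend, quantile normalization, median centring, a filter at mean log2 RPKM 1, a title series term, a replicate block, log2(RPKM + 1), a fit of the 2 compared lines alone, and leaving out each of 15 samples; the call threshold was also changed.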

Additional observations from a re-analysis of the deposited data

Results flagged for a closer look

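Lines derived with different drugs, or from different single cells of one population, differed from each other in 7 values of the 10 genes, each tested by limma as the difference between the 2 lines. Between Ov4Cis and Ov4Carbo, ERCC5 differed by -1.04 log2 units, ERCC8 by -0.31 and ERCC1 by 0.32; these 3 of 10 stand beside 18.1% of all genes called higher and 16.1% lower. The ERCC1 and ERCC8 calls were lost in 12 and 11 of 23 refits. Between the clones Ov4Carbo7 and Ov4Carbo4, DDB2 differed by -0.44, ERCC6 by -0.63, ERCC2 by -0.59 and XPA by -0.43; these 4 of 10 stand beside 24% of all genes called higher and 27.1% lower. The XPA call was lost in 4 of 23 refits. With both directions counted, neither the 3 of 10 nor the 4 of 10 exceeded the share of all genes called. The 4 between the clones were all lower, beside 27.1% of all genes lower. In all 7 the 3 samples of one line lay outside the range of the other. The 7 were picked by calls on these same samples, so this separation adds no support to them.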

How the results depend on the processing

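None of the 19 called values of the 10 genes changed sign in any refit, but in many refits the sign could not change. The variance trend, the filter, the replicate block and the fit of 2 lines leave the difference itself as it was. So does leaving out a sample of a line outside the comparison, and such refits bear only on the call. The 19 values stayed called in 379 of 435 refits and lost the call in 56. The 61 uncalled values became called in 25 of 1397. Counts in the rest of this section stand without the share of all genes called at each setting. They show how calls move with the setting, not whether a count is unusual. With an added limit of 1 log2 unit, 0 members were called in 7 comparisons and 1 in Ov4Cis against Ov4Carbo. At an adjusted p under 0.01, 0 were called in Ov4Carbo against parental, in Ov4Carbo4 and in Ov4Carbo7 against Ov4Carbo, and 1 in Ov4Cis against Ov4Carbo. With only the 2 groups in limma the same 4 counts were 0, 0, 0 and 1, with 1, 0 and 2 members at an unadjusted p under 0.05 in the first 3. The term for the title series gave 2 members in Ov4Carbo against parental and 1 in Ov4Carbo7 against Ov4Carbo. Leaving out single samples gave 1 to 2 in Ov4Carbo against parental, 0 to 2 in Ov4Carbo4, 1 to 3 in Ov4Carbo7 and 1 to 3 in Ov4Cis against Ov4Carbo.

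Of the 42 other excision repair genes, the limit of 1 log2 unit left 0 in Ov4Cis, 1 each in Ov4Carbo, Ov4Carbo4 and Ov4Carbo7 against parental, 3 in Ov4Carbo4, 1 in Ov4Carbo7 and 1 in Ov4Cis against Ov4Carbo, and 2 between the clones. An adjusted p under 0.01 left 4 in Ov4Cis, 6 in Ov4Carbo and 13 in Ov4Carbo7 against parental, 11 in Ov4Carbo4 and 6 in Ov4Cis against Ov4Carbo, and 17 between the clones. Only the 2 groups gave 3 in Ov4Carbo against parental, and 10, 6 and 5 in Ov4Carbo4, Ov4Carbo7 and Ov4Cis against Ov4Carbo. The title series term gave 10 in Ov4Carbo4 and 13 in Ov4Carbo7 against parental, and 8 and 4 in the same lines against Ov4Carbo. Without single samples the counts were 6 to 14 in Ov4Cis and 9 to 19 in Ov4Carbo against parental, and 13 to 22 in Ov4Carbo4 (lowest without its replicate 3) and 6 to 18 in Ov4Cis against Ov4Carbo (6 without Ov4Cis replicate 2, 8 without Ov4Cis replicate 3 or Ov4Carbo replicate 3). The cause of these changes was not tested.

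Lines share replicate numbers. Of 30 same-numbered pairs, 12 had deviations correlated above 0.1, and 6 of 15 samples correlated best with their own number. The correlations ran from -0.5 to 0.54 and differed by line. They were 0.54, 0.07 and 0.27 between the parental line and Ov4Cis, and -0.5, -0.16 and -0.27 between Ov4Carbo and the parental line. These pooled counts do not settle whether the numbers pair the samples, and the main fit used no pairing. With the number as a replicate block, 0 members were called in Ov4Carbo4 against Ov4Carbo (2 at an unadjusted p under 0.05, limma) and 1 in Ov4Cis against Ov4Carbo. Depth is unknown, and 3 samples per line limit the precision.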
